A study of Mus musculus with 14 samples.

Results

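The contraction, calcium release and energy supply of the mature skeletal muscle fibre rest on the proteins of 39 genes, whose RNA was followed here in sorted muscle stem cells. The genes were taken by name from 2 deposited count tables of 49671 gene rows each, as the rows whose Ensembl identifier maps to the listed symbols in the mouse build GRCm38, and all 39 were present in both tables. They comprise 13 genes typical of fast fibres, 7 typical of slow fibres, 11 sarcomere genes used by both kinds of fibre, 4 genes of the triad and 4 genes of fibre metabolism, so the set is wider than sarcomere and calcium genes alone.

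Satellite cells, the resident stem cells of skeletal muscle, had been sorted directly from resting muscle of C57BL/6J mice (hind limbs, pectorals and triceps) as cells that carried CXCR4 and B1-integrin and lacked Sca1, Ter119, CD11b, CD31 and CD45, with 1000 cells per library. In the first dataset, 4 libraries labelled FosGFP+ and 4 labelled FosGFP- came from 4-month-old FosGFP mice, named for a green fluorescent reporter of the immediate early gene Fos by which the cells were gated. In the second, 3 libraries labelled FoscKO, named for a conditional knockout of Fos, and 3 labelled Control came from 6-month-old mice. The design text gives 4 mice for the first dataset and 3 for the second. It describes FoscKO and Control cells alike as gated on FosGFP+. The driver of the recombinase, the deleted part of Fos and the alleles of the Control mice are not given in the sources used here. Which mouse gave which library is not stated, so the p-values below measure the spread between libraries only. In the first dataset, FosGFP+ and FosGFP- libraries may come from the same animals. If 4 is the number of all its mice, some of its libraries must share an animal. The main test below treats all libraries as independent.

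In the sarcomere, myosin heavy chains of the thick filament pull on actin of the thin filament, and calcium opens the thin filament by binding the troponin complex on tropomyosin. The calcium is released at the triad, where a voltage sensor in the transverse tubule opens the ryanodine receptor of the sarcoplasmic reticulum, and a calcium pump returns it. Fast and slow fibres use different genes for many of these parts, and satellite cells, which lie against the fibre under its basal lamina, have no sarcomeres until their progeny differentiate and fuse.

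Promoters are shown for the 5 members on which the results below turn most: the 2 genes that passed the test in the first dataset (Mybpc2 and Pygm), 2 fast fibre genes whose libraries did not overlap between the groups of the second dataset (Myh4 and Mylpf), and the most abundant member (Acta1). Each sequence is the 250 bases before the annotated start in RefSeq (GRCm38.p6), written 5′ to 3′ on the strand of the gene, with E-boxes (CANNTG), MCAT elements (CATTCC), MEF2 sites and CArG boxes on either strand and TATA boxes (TATAAA) on the gene's strand in capitals. The windows lie at chr8:123894776-123895025 (minus strand) for Acta1, chr11:67237562-67237811 (plus strand) for Myh4, chr7:127211358-127211607 (plus strand) for Mylpf, chr7:44524670-44524919 (minus strand) for Mybpc2 and chr19:6384158-6384407 (plus strand) for Pygm.
Acta1: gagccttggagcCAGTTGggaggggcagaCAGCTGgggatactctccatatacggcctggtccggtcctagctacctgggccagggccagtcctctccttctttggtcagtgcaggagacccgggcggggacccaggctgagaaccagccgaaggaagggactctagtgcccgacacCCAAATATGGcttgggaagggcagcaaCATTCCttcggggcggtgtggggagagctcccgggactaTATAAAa
Myh4: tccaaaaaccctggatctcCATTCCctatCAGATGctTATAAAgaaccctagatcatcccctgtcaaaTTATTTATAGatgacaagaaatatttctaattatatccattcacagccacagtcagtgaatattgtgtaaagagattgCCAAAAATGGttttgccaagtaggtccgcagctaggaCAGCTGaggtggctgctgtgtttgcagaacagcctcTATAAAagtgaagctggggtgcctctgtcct
Mylpf: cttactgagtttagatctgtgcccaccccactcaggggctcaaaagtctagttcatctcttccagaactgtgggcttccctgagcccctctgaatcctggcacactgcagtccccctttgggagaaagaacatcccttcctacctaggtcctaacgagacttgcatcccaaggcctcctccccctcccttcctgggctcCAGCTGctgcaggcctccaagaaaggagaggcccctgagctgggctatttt
Mybpc2: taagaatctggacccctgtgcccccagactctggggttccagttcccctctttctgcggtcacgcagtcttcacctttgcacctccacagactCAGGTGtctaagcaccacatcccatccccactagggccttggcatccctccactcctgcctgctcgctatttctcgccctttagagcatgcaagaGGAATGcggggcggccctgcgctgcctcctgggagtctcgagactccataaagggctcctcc
Pygm: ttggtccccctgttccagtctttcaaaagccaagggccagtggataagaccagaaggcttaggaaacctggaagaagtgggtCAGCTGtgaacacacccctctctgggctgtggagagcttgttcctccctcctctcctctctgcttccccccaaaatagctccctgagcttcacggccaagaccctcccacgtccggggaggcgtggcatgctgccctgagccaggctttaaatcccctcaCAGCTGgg
The Acta1 window holds 2 E-boxes, 1 CArG box, 1 MCAT element and 1 TATA box, and the Myh4 window holds 2 E-boxes, 2 TATA boxes and 1 each of the MEF2 site, the CArG box and the MCAT element. The Mylpf window holds 1 E-box, that of Mybpc2 1 E-box and 1 MCAT element, and that of Pygm 2 E-boxes. Of the 39 members, 31 were in the promoter table, and Actn3, Myot, Myoz1, Neb, Tcap, Tnni2, Tnnt3 and Trdn were not. An E-box lay in 26 of the 31 windows (83.9%) and in 66.0% of 27025 promoters of the same length, a MCAT element in 11 (35.5%) against 12.6%, a MEF2 site in 5 (16.1%) against 3.01%, a CArG box in 4 (12.9%) against 1.40%, and a TATA box in 4 (12.9%) against 8.12%. All 7 slow fibre genes had an E-box and none a MEF2 site, while 3 of the 9 fast fibre genes in the table had a MEF2 site. Such matches describe the letters of the windows and show no binding. Gene spans given below come from GENCODE M21 (GRCm38), whose outermost start need not be the RefSeq one.

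Counts in genes ran from 2652230 to 5983711 per library in the first dataset and from 4797954 to 10241655 in the second. All 10 satellite cell markers stood above 2 times the background described below in at least 1 library of every group, and Pax7, their defining factor, was at 52.0 ± 18.01, 70.6 ± 20.0 (SD, n = 4), 52.0 ± 19.3 and 57.8 ± 5.61 CPM (SD, n = 3) in FosGFP+, FosGFP-, FoscKO and Control, where CPM stands for read counts scaled to a common library size after TMM. Fos went against the labels of the first dataset. It was at 5146, 5299, 3041 and 4520 CPM in the libraries labelled FosGFP+ and at 12648, 11379, 7762 and 11096 CPM in those labelled FosGFP- (log2 fold change -1.25, SE 0.21, adjusted p = 0.000933, edgeR). In the libraries labelled FoscKO it was at 8357, 2847 and 3766 CPM, and in Control at 4992, 4974 and 4685 CPM (log2 fold change 0.03, SE 0.39, adjusted p = 0.996, edgeR), so that 2 of the 3 FoscKO libraries lay below every Control library and FoscKO replicate 1 above all of them. Reads outside the deleted part of Fos would not show its loss, so the second set of values checks the labels only in part. The directions below are therefore those between labels.

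The level of each member was set against an even background, the reads per exonic kilobase over 1469 odorant, vomeronasal and taste receptor genes, which muscle cells are not known to use. That background made up 6.39 to 10.6% of gene counts in FosGFP+, 13.0 to 19.4% in FosGFP-, 3.98 to 11.7% in FoscKO and 9.08 to 10.6% in Control. Of the 39 members, 27 lay above 2 times the background in every one of the 14 libraries, 12 crossed that limit and 0 stayed below it in all. Metabolism genes were above it in 4 of 4 cases and fast fibre genes in 11 of 13, against 3 of 7 slow fibre genes and 1 of 4 triad genes. Per exonic length, Acta1, the skeletal actin of the thin filament, was the highest member in every group, at 266 ± 78.9 and 197 ± 15.4 CPM per kb in FosGFP+ and FosGFP- (SD, n = 4) and 424 ± 265 and 690.1 ± 243 in FoscKO and Control (SD, n = 3). The 2 datasets were scaled apart, so these levels are compared within each dataset.

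Actn3, the fast isoform of the Z-disc actin crosslinker, was the highest fast gene per length in FosGFP+, FosGFP- and FoscKO (111 ± 21.2, 89.4 ± 25.6 and 83.6 ± 29.3 CPM per kb). In Control it stood at 79.2 ± 25.0, within the spread of Atp2a1, the fast calcium pump of the sarcoplasmic reticulum (114 ± 56.2), and of Tnnt3, the fast troponin T (98.2 ± 77.6). The order of the next genes, Ckm, Atp2a1, Pygm and Eno3, could not be told apart from their spread in FosGFP+, where they stood at 82.1 ± 27.3, 67.8 ± 18.4, 53.1 ± 11.6 and 45.9 ± 13.5 CPM per kb. Among the genes listed here as slow, only Mybpc1, a myosin-binding protein C, stayed far above the background in every library (13.5 to 51.7 times). Tnnt1, the slow troponin T, ran from 4.96 to 17.9 times and Tnni1, the slow troponin I, from 2.04 to 8.55 times. Myh7, the slow myosin heavy chain, ranged from 0.353 to 3.43 times the background, Myl2, a slow regulatory light chain, from 1.202 to 5.45 times, Myl3, a slow essential light chain, from 0 to 4.64 times and Tnnc1, the slow troponin C, from 0 to 5.14 times. Among the fast genes, Myh1 and Myh2 also had libraries below the background, at 0.611 to 16.9 times and 0.640 to 3.46 times. The giant genes were low per length in spite of many reads: Ttn, the elastic filament of the sarcomere, lay at 2.17 to 2.96 times and Neb, the ruler of the thin filament, at 2.00 to 4.04 times the background. Ryr1, the release channel, Trdn, which anchors it, and Cacna1s, the voltage sensor, lay at 0.933 to 3.57 times, 0.801 to 2.25 times and 1.48 to 7.65 times, while Casq1, the calcium store protein, lay at 4.97 to 28.0 times.

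**Figure D1:**
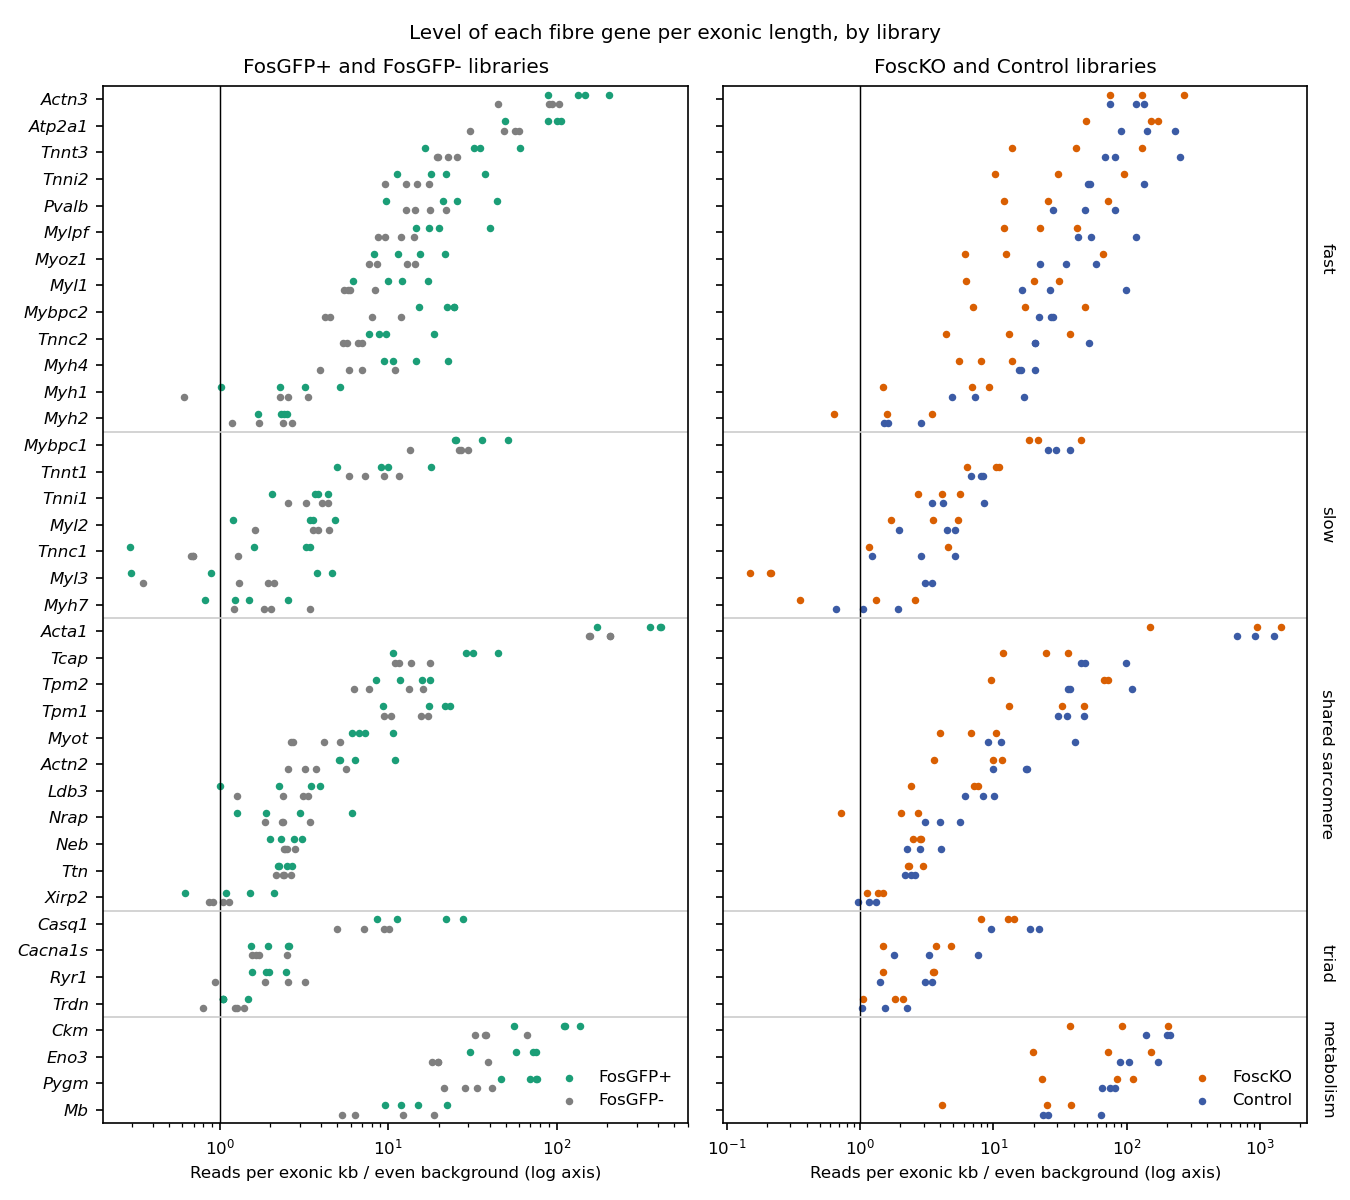
Reads per exonic kilobase of each of the 39 fibre genes, divided by the even background of the same library (log axis, vertical line at 1), with 1 point per library. Left, FosGFP+ and FosGFP-; right, FoscKO and Control; within each group of genes the order is by the mean over libraries, and the 2 values of 0 (Myl3 in Control replicate 1 and Tnnc1 in FoscKO replicate 2) cannot be drawn. Acta1 lies from 149 to 1429 times the background. Libraries lie on both sides of the line for Xirp2, Nrap, Trdn, Ryr1, the fast genes Myh1 and Myh2 and the slow genes Myh7, Myl3 and Tnnc1.

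Some counts may hold reads of other genes, since the amplification kit does not keep the strand. Of the 800 exonic bases of Tnnc2, the fast troponin C, 592 are shared with Ube2c on the other strand, and Atp2a1 shares 763 of 3477 with Rabep2. Ckm shares 451 of 2913 exonic bases with A930016O22Rik and Mb 412 of 1492 with Gm49540. Myh1, Myh2 and Myh4 are near-identical neighbours, and how reads common to them were counted is not given in the sources used here.

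The first comparison set fibre RNA in the libraries labelled FosGFP+ against that in the libraries labelled FosGFP-. Of 38 members tested (Tnnc1 was too low), 2 rose in the libraries labelled FosGFP+, where 10.3% of all 20698 genes tested did, and 0 fell, where 1.85% did (edgeR quasi-likelihood test, adjusted p under 0.05). The 2 were Mybpc2, the fast myosin-binding protein C, 2.21-fold higher, and Pygm, the muscle glycogen phosphorylase, 1.59-fold higher. At an unadjusted p under 0.05, 4 members were higher (16.5% of all genes) and 2 lower (9.89%). The members had a median log2 fold change of 0.09, with 15 of 38 below 0, while all genes had a median of -0.18, with 60.3% below 0, and the 3946 genes of at least 50 CPM one of 0.57. DESeq2 called 4 members higher and 0 lower (14.5% and 2.6% of all genes), and limma-voom 2 and 0 (10.7% and 2.21%). Without FosGFP+ replicate 1, the highest FosGFP+ library for 24 of 38 members where it was the highest for 27.1% of all genes, the median of the members turned to -0.08, with 21 of 38 below 0. Without FosGFP+ replicate 3, 5 members were called higher (9.83% of all genes) and 0 lower (1.62%), and without FosGFP- replicate 3, 3 were higher (9.32%) and 0 lower (1.09%). With no filter on low counts, 4 were higher (5.4%) and 0 lower (0.772%).

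That balance depended on the scaling. With libraries scaled by total counts, which moved the median of all genes by -0.38, 26 of 38 members lay below 0, 0 were called higher and 3 lower (Ttn, Neb and Myh7), beside 1029 higher (4.97%) and 2087 lower (10.1%) of all genes in place of 2125 and 383. With TMM computed over well-expressed genes (a mean of at least 50 CPM), a shift of -0.59, 30 of 38 lay below 0, 0 members were called higher and 8 lower (Ttn, Neb, Tpm1, Myh7, Tnni1, Mybpc1, Ryr1 and Trdn), beside 712 (3.44%) and 5307 (25.6%) of all genes. With the even background subtracted, a shift of -0.19, 0 members were called in either direction, beside 1324 (8.44%) and 259 (1.65%) of all genes. Other measures differed between the groups, some of them only under part of the scalings. Reads in genes made up 17.0 to 23.2% of the library in FosGFP+ and 10.3 to 14.1% in FosGFP-. The summed CPM of the 10 satellite cell markers was 7904 to 11799 in FosGFP+ and 4962 to 7214 in FosGFP-. These ranges overlapped with total counts (7117 to 11101 and 6323 to 7926). They also did with the background subtracted (7995 to 12551 and 6499 to 8349). Single markers were split, with 6 above 0 and 4 below (Pax7, Cdh15, Calcr and Chodl), and a median log2 fold change of 0.20. Vcam1, Itgb1 and Sdc4 were called higher, while Calcr was lower without overlap between the groups (log2 fold change -0.51, SE 0.18, adjusted p = 0.079, edgeR). The 10 endothelial markers summed to 190.1 to 225 CPM in FosGFP+ and 215 to 324 in FosGFP-, which overlapped. Their sums did not overlap with total counts (155 to 203 and 273 to 364) or with the background subtracted (156 to 194 and 215 to 329). All 9 endothelial markers tested lay below 0 in FosGFP+, where 60.3% of all genes did, with a median of -0.62. Of these, 4 were lower without overlap between the groups (Cdh5, Kdr, Emcn and Ramp2), as in 6.45% of all genes. Ramp2 was called lower (log2 fold change -1.31, SE 0.29, adjusted p = 0.00753, edgeR). Of the 10, 4 stood below 2 times the background in every FosGFP+ library (Cdh5, Cldn5, Egfl7 and Tie1) and 2 in every FosGFP- library (Cdh5 and Cldn5). Summed fibro-adipogenic progenitor markers were at 3813 to 5049 and 2354 to 5065 CPM, smooth muscle and pericyte markers at 501 to 669 and 249 to 818, and leukocyte markers at 52.9 to 105 and 80.2 to 121. Of these lists, Smoc2 and Cspg4 were called lower in FosGFP+. The part of these measures in the results was not tested.

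Of the 13 fast fibre genes, 11 lay above 0, with a median of 0.31, but only 4 with total counts and 2 with the well-expressed scaling. Mybpc2 (chr7:44501699-44524656) was at 67.6, 56.2, 50.5 and 73.1 CPM in the libraries labelled FosGFP+ and at 15.3, 33.5, 45.2 and 18.5 in those labelled FosGFP-. Every FosGFP+ library was above every FosGFP- library, as in 12.9% of all genes (log2 fold change 1.14, SE 0.30, adjusted p = 0.0193, edgeR). Scaling by total counts ended the call (adjusted p = 0.0666, log2 fold change 0.78). So did the well-expressed scaling (0.104, 0.58), subtraction of the background (0.0824, 1.06) and leaving out FosGFP- replicate 1 or 4 (0.0545 and 0.0544). The other abundant fast genes overlapped between the groups. Actn3 stood at 326, 375, 235 and 352 CPM in FosGFP+ and 246, 318, 314 and 159.8 in FosGFP- (log2 fold change 0.31, SE 0.22, adjusted p = 0.386). Atp2a1 was at 311, 223, 157 and 252 CPM in FosGFP+ against 184, 197, 220.1 and 129.6 in FosGFP- (log2 fold change 0.37, SE 0.22, adjusted p = 0.307). Myh4, the heavy chain of the fastest fibres, was at 73.7, 86.7, 52.2 and 53.0 CPM in FosGFP+ and 32.8, 48.8, 69.4 and 28.7 in FosGFP-. In none of these 3 did the highest FosGFP- library fall below the lowest FosGFP+ library, and Actn3 and Atp2a1 turned negative with total counts and with the well-expressed scaling. The other 9 fast genes had log2 fold changes from -0.27 (Myh2, another fast myosin heavy chain) to 0.62 (Mylpf). Their adjusted p ranged from 0.278 to 0.953 (edgeR).

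Of the 6 slow fibre genes tested, 4 lay below 0, with a median of -0.34 that stayed negative under every scaling. None passed the test with TMM, Myh7 was called lower with total counts, and Myh7, Tnni1 and Mybpc1 with the well-expressed scaling. Mybpc1 was at 137, 148, 102 and 93.8 CPM in FosGFP+ and 115, 156, 125 and 74.5 in FosGFP- (log2 fold change 0.03, negative with total counts, with the well-expressed scaling and with the background subtracted). Tnnt1 was at 16.8, 25.0, 20.1 and 8.98 CPM in FosGFP+ against 23.8, 18.6, 22.01 and 15.8 in FosGFP-. Tnni1 was at 13.3, 8.41, 6.70 and 11.3 CPM in FosGFP+ against 10.9, 10.7, 16.7 and 17.9 in FosGFP-. Myh7 was at 8.89, 13.9, 11.7 and 5.77 CPM in FosGFP+ and 16.2, 18.3, 11.0 and 36.1 in FosGFP- (log2 fold change -1.01, SE 0.39, adjusted p = 0.106). Its groups overlapped at the lowest FosGFP- library, and at levels this near the background its counts per library were 27 to 123.

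Sarcomere genes of both fibre kinds were split, with 6 of 11 below 0 (5 with DESeq2 size factors, 7 with total counts and 9 with the well-expressed scaling) and none called with TMM. Ttn and Neb were called lower with total counts, and Ttn, Neb and Tpm1 with the well-expressed scaling. Acta1 was at 533, 406, 245 and 451 CPM in FosGFP+ and 297, 279.6, 336 and 297 in FosGFP- (log2 fold change 0.43, SE 0.21, adjusted p = 0.202). Tpm1, a tropomyosin of the thin filament, was at 126, 88.8, 55.0 and 93.2 CPM in FosGFP+ against 95.4, 78.6, 118 and 74.5 in FosGFP-. Of both genes, 1 FosGFP+ library (replicate 3) lay below every FosGFP- library. The giant genes Ttn and Neb were the 2 members whose libraries did not overlap and lay lower in FosGFP+, as in 6.45% of all genes. Ttn was at 265, 165, 242 and 239 CPM in FosGFP+ and 291, 327, 291 and 308 in FosGFP- (log2 fold change -0.42, SE 0.18, adjusted p = 0.147). Neb was at 61.8, 33.6, 56.4 and 67.1 CPM in FosGFP+ against 69.1, 75.0, 70.3 and 78.9 in FosGFP-. Both stood within 4.04 times the background in every library, and the background share of gene counts was itself higher in every FosGFP- library, without its part in these values being tested. The other 7 shared sarcomere genes, Z-disc and thin filament genes among them, lay from -0.37 (Ldb3) to 0.65 (Tcap), and their adjusted p ranged from 0.261 to 0.980.

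Of the triad genes, 3 of 4 lay below 0 and none was called with TMM, while Ryr1 and Trdn were called lower with the well-expressed scaling. Casq1 was at 45.8, 27.3, 15.4 and 18.2 CPM in FosGFP+ and 13.1, 11.3, 20.9 and 22.6 in FosGFP- (log2 fold change 0.66, SE 0.36, adjusted p = 0.253), where replicate 1 was the highest FosGFP+ library. Ryr1 was at 45.1, 27.1, 37.7 and 27.8 CPM in FosGFP+ against 51.6, 23.7, 73.7 and 49.3 in FosGFP-. Cacna1s ranged from 9.21 to 15.3 CPM and Trdn from 6.15 to 15.8 CPM over the 8 libraries.

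All 4 metabolism genes lay above 0, with a median of 0.73, and 3 of the 4 did with total counts, with the well-expressed scaling and with the background subtracted. Pygm (chr19:6384399-6398459) was at 207, 141, 137 and 198 CPM in FosGFP+ and 124, 107, 115 and 84.2 in FosGFP-, so that the lowest FosGFP+ library stood above the highest FosGFP- library (log2 fold change 0.67, SE 0.20, adjusted p = 0.0387, edgeR). Scaling by total counts ended the call (adjusted p = 0.225, log2 fold change 0.30), as did the well-expressed scaling (0.68, 0.09) and subtraction of the background (0.147, 0.46). Each of 5 single libraries also ended it when left out, FosGFP+ replicates 1 and 4 and FosGFP- replicates 2, 3 and 4 (adjusted p from 0.057 to 0.103). Ckm, the muscle creatine kinase that buffers ATP, was at 335, 207, 149 and 266 CPM in FosGFP+ and 89.2, 129, 205 and 133 in FosGFP- (log2 fold change 0.78, SE 0.27, adjusted p = 0.067). Eno3, the muscle enolase of glycolysis, was at 105, 83.4, 48.6 and 81.8 CPM in FosGFP+ against 32.1, 36.6, 72.0 and 41.9 in FosGFP- (log2 fold change 0.81, SE 0.28, adjusted p = 0.0695). In both, FosGFP+ replicate 3 fell inside the FosGFP- range. Without that library both were called (adjusted p = 0.0188 and 0.0197), as they were without FosGFP- replicate 3, the highest of its group (0.0191 and 0.0119). Mb, the oxygen store myoglobin, was at 27.8, 14.1, 13.1 and 14.5 CPM in FosGFP+ against 26.2, 11.0, 19.2 and 9.68 in FosGFP- and overlapped. In the authors' deposited table, which lists genes with an adjusted p under 0.05, Mybpc2, Eno3, Ckm and Pygm were the 4 members present, at log2 fold changes of -1.12, -0.84, -0.82 and -0.73. The sign there is opposite to that of the count table for 3398 of its 3422 genes, Fos included (1.09 in the authors' deposited table), and its header does not say which group was divided by which, so only the sizes are compared.

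**Figure D2:**
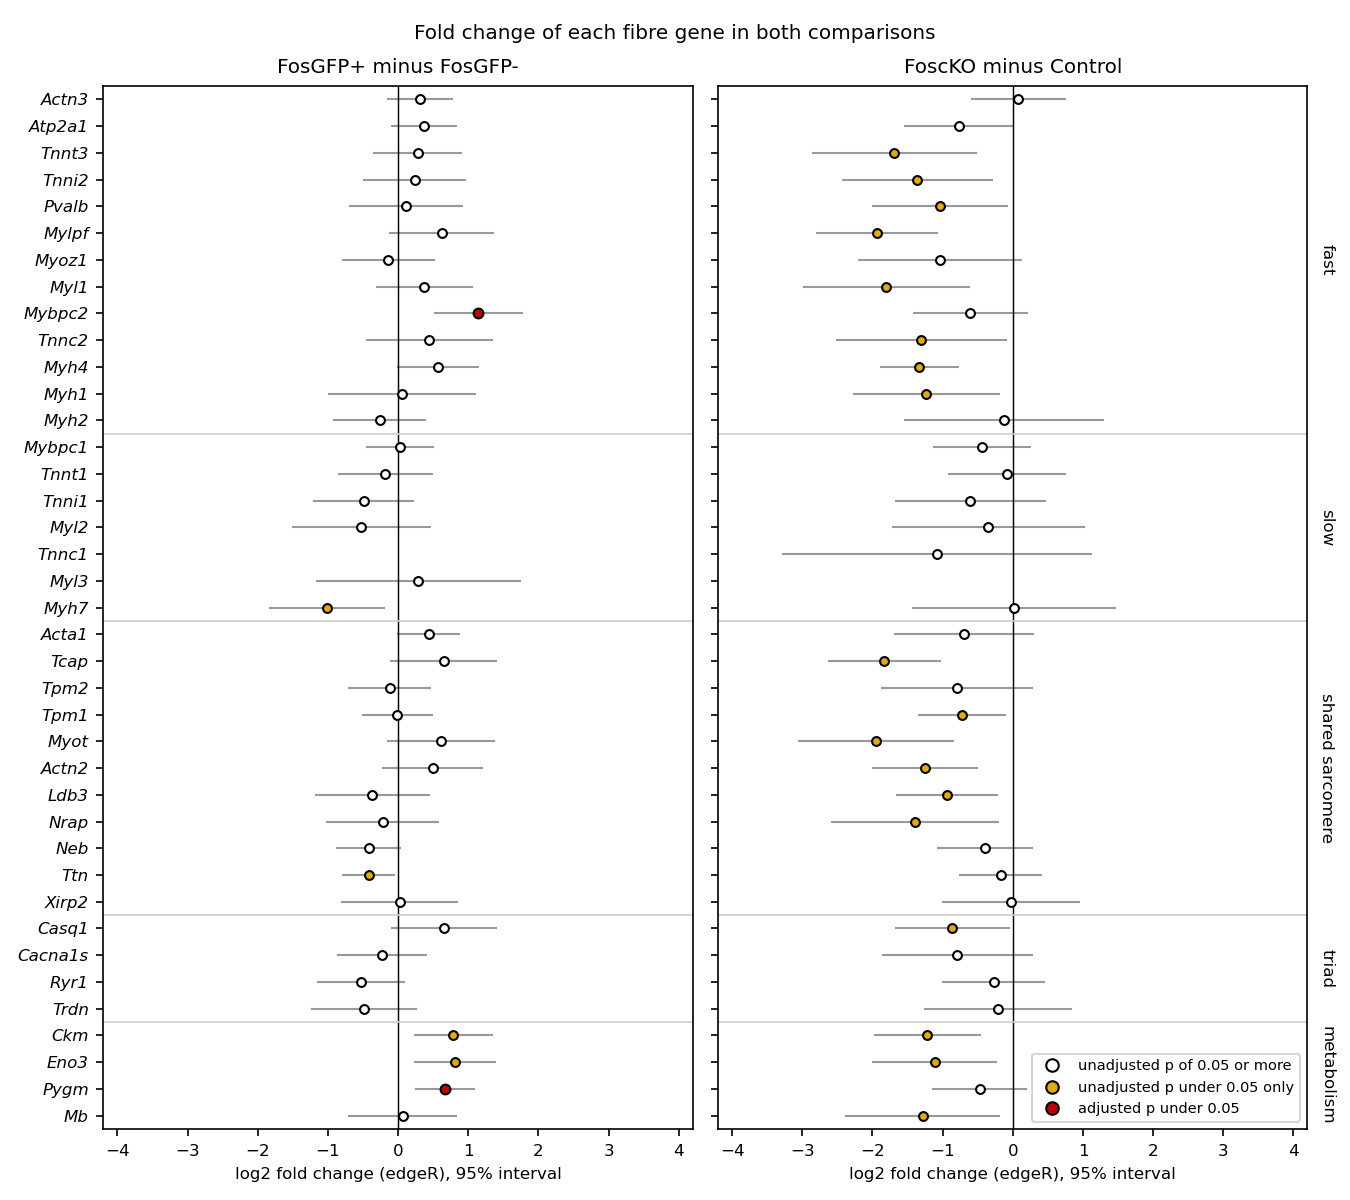
Log2 fold change of each tested fibre gene with its 95% interval (edgeR), FosGFP+ minus FosGFP- on the left and FoscKO minus Control on the right. Red points passed the adjusted test (Mybpc2 and Pygm, first comparison), yellow points passed an unadjusted p of 0.05 only and white points neither; on the left 15 of 38 points lie below 0 and on the right 36 of 38, and Tnnc1 and Myl3 were each too low to test on 1 side.

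The second comparison set the libraries labelled FoscKO against those labelled Control for the same genes. In the libraries labelled FoscKO, 36 of the 38 members tested (all but Myl3) had a negative log2 fold change, where 52.6% of all 21885 genes tested did, and the median of the members was -0.83 against -0.04 for all genes and 0.25 for the 3845 genes of at least 50 CPM. None passed the adjusted test of edgeR, by which 0 of all genes were called (0% in either direction). At an unadjusted p under 0.05, 18 members were lower, where 1.96% of all genes were, and 0 were higher, where 3.56% were. In 11 members every FoscKO library lay below every Control library, as in 6.47% of all genes, and in 0 members every one lay above, as in 5.75%. DESeq2 called 3 members lower (Tcap, Mylpf and Myh4, beside 0.146% of all genes) and limma-voom 0 (0.0137%), and neither called a member higher. The 2 members above 0 were Actn3 (0.08) and Myh7 (0.02), and under total counts or the well-expressed scaling, shifts of -0.18 and -0.19 in the median of all genes, all 38 lay below 0, with 2 called lower (Myh4 and Ckm, beside 0.155% and 0.151% of all genes) and 0 higher (beside 0.0548% and 0.0503%). With the background subtracted, 1 was called lower (Myh4, beside 0.0768%) and 0 higher (0.0118%), and with no filter 8 were lower (0.105%) and 0 higher (0.195%).

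Of the 13 fast fibre genes, 12 lay below 0 and 8 of those had an unadjusted p under 0.05, with a median of -1.23. Myh4 (chr11:67238029-67260446) was at 36.1, 27.7 and 26.4 CPM in the libraries labelled FoscKO and 88.8, 67.6 and 70.6 in Control, without overlap (log2 fold change -1.33, SE 0.26, adjusted p = 0.129). It was called with total counts (adjusted p = 0.0101), with the well-expressed scaling (0.0111), with no filter (0.0198), with the background subtracted (0.0484), by DESeq2 (0.0471) and without FoscKO replicate 1 (0.0288). Mylpf, the fast regulatory light chain (chr7:127208890-127214298), was at 19.8, 10.7 and 13.0 CPM in FoscKO and 33.0, 40.1 and 93.4 in Control, also without overlap (log2 fold change -1.93, SE 0.40, adjusted p = 0.178).

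Other fast genes had log2 fold changes of similar size, but their groups overlapped. Myl1, the fast essential light chain, was at 28.3, 10.7 and 23.1 CPM in FoscKO and 24.7, 38.8 and 154 in Control (log2 fold change -1.80, SE 0.56, adjusted p = 0.644). Tnnt3 was at 90.4, 18.1 and 35.9 CPM in FoscKO against 93.1, 76.3 and 297 in Control (log2 fold change -1.69, SE 0.55, adjusted p = 0.705). Tnni2, the fast troponin I, was at 63.1, 12.9 and 25.0 CPM in FoscKO against 57.5, 53.2 and 150.4 in Control (log2 fold change -1.36, SE 0.50, adjusted p = 0.783). In each of the 3, FoscKO replicate 1 reached into the Control range and Control replicate 3 was at 2.72 to 4.87 times the mean of the other two Control libraries. Atp2a1 was at 259, 145 and 290.4 CPM in FoscKO and 357, 221 and 606 in Control (log2 fold change -0.77, SE 0.36, adjusted p = 0.91). Actn3 was at 339.5, 182 and 206 CPM in FoscKO against 245, 151 and 293 in Control. Both genes overlapped between the groups. Tnnc2 was at 13.2, 2.95 and 5.71 CPM in FoscKO against 11.9, 11.5 and 31.3 in Control, a count that may hold Ube2c reads. Mybpc2, called in the first comparison, was at 77.0, 21.03 and 34.3 CPM in FoscKO and 69.9, 55.5 and 76.3 in Control, where FoscKO replicate 1 was the highest of all 6 libraries (log2 fold change -0.60, SE 0.38, adjusted p = 0.914). The other 4 fast genes (Myh1, Myh2, Myoz1 and the calcium buffer Pvalb) had log2 fold changes from -1.23 (Myh1) to -0.12 (Myh2).

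Of the 6 slow fibre genes tested, 5 lay below 0, with a median of -0.39 and none at an unadjusted p under 0.05. Mybpc1 was at 42.6, 70.1 and 113 CPM in FoscKO and 96.2, 81.8 and 128 in Control (log2 fold change -0.44, SE 0.33, adjusted p = 0.914). Tnnt1 was at 10.0, 11.6 and 13.2 CPM in FoscKO against 12.8, 13.0 and 11.3 in Control. Tnni1 was at 4.28, 12.4 and 11.1 CPM in FoscKO against 9.08, 21.5 and 11.3 in Control. Myh7 was at 1.34, 9.41 and 12.1 CPM in FoscKO against 4.08, 11.6 and 6.77 in Control. Here FoscKO replicate 1, the highest FoscKO library of 11 of 13 fast genes, was the lowest of 5 of the 6 slow genes. Of all genes tested, it was the highest FoscKO library for 34.2% and the lowest for 44.3%. Whether slow and fast genes differ in their response was not tested. Tnnc1 and Myl2 lay at -1.08 and -0.35, and Myl3, too low to test, had 1, 2 and 2 counts in FoscKO and 0, 33 and 33 in Control.

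All 11 shared sarcomere genes lay below 0, with a median of -0.80, and 6 of them at an unadjusted p under 0.05 also had groups that did not overlap (Actn2, Ldb3, Myot, Nrap, Tcap and Tpm1). Tcap, the telethonin that caps titin at the Z-disc, was at 15.1, 9.41 and 13.0 CPM in FoscKO and 33.4, 30.1 and 70.5 in Control (log2 fold change -1.83, SE 0.38, adjusted p = 0.173). Myot, the Z-disc protein myotilin, was at 10.2, 7.38 and 8.21 CPM in FoscKO against 14.6, 17.5 and 67.7 in Control (log2 fold change -1.95, SE 0.52, adjusted p = 0.456). Actn2, the Z-disc actinin of all fibres, was at 16.4, 11.4 and 24.2 CPM in FoscKO against 27.4, 46.2 and 50.8 in Control (log2 fold change -1.25, SE 0.35, adjusted p = 0.547). The group also held Ldb3, which binds actinin at the Z-disc (log2 fold change -0.94, SE 0.34, adjusted p = 0.783), and Nrap, an actin-binding protein of growing myofibrils (log2 fold change -1.39, SE 0.56, adjusted p = 0.842). Tpm1 was at 136, 71.2 and 117 CPM in FoscKO against 167, 138 and 231 in Control (log2 fold change -0.73, SE 0.29, adjusted p = 0.847). Acta1 was at 964, 191 and 801 CPM in FoscKO and 1008, 716 and 1457 in Control (log2 fold change -0.70, SE 0.46, adjusted p = 0.914), overlapping. Tpm2 was at 92.5, 23.2 and 108 CPM in FoscKO against 76.7, 75.8 and 238 in Control. Ttn, close to the background, was at 117, 227 and 189.6 CPM in FoscKO against 216, 195 and 191 in Control (log2 fold change -0.17, SE 0.27, adjusted p = 0.943), a sign that turned without FoscKO replicate 1 (0.05).

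The 4 triad genes all lay below 0, with a median of -0.53. Casq1 was at 12.3, 13.1 and 13.8 CPM in FoscKO and 13.5, 25.5 and 32.1 in Control (log2 fold change -0.86, SE 0.38, adjusted p = 0.89). The lowest Control library lay within the range of the FoscKO libraries. Ryr1 was at 34.2, 27.1 and 42.5 CPM in FoscKO against 22.2, 53.1 and 50.3 in Control, Cacna1s at 13.9, 8.12 and 13.4 CPM in FoscKO against 15.6, 8.29 and 37.7 in Control. Trdn was at 8.55, 14.4 and 5.36 CPM in FoscKO against 7.04, 14.7 and 10.8 in Control. Each of these overlapped.

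The 4 metabolism genes lay below 0 as well, with a median of -1.17, and 3 of them did not overlap between groups. Ckm (chr7:19404776-19422841) was at 262, 90.8 and 147 CPM in FoscKO and 419.7, 285 and 461 in Control (log2 fold change -1.22, SE 0.36, adjusted p = 0.586), and was called with total counts (adjusted p = 0.03), with the well-expressed scaling (0.0351), with no filter (0.0361) and without FoscKO replicate 1 (0.0125). Mb was at 24.9, 5.17 and 20.5 CPM in FoscKO against 25.4, 26.6 and 72.2 in Control (log2 fold change -1.29, SE 0.51, adjusted p = 0.842). Pygm was at 157, 62.4 and 149.6 CPM in FoscKO against 189, 167 and 158 in Control (log2 fold change -0.47, SE 0.32, adjusted p = 0.914). Eno3 was at 116, 29.0 and 68.5 CPM in FoscKO and 131, 108 and 225 in Control (log2 fold change -1.12, SE 0.41, adjusted p = 0.783), overlapping at FoscKO replicate 1. In the authors' deposited table for this comparison, the 3 members listed were Myh4, Tcap and Mylpf, at log2 fold changes of 1.09, 1.40 and 1.44, a sign again opposite to that of the count table for all 69 genes listed.

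**Figure D3:**
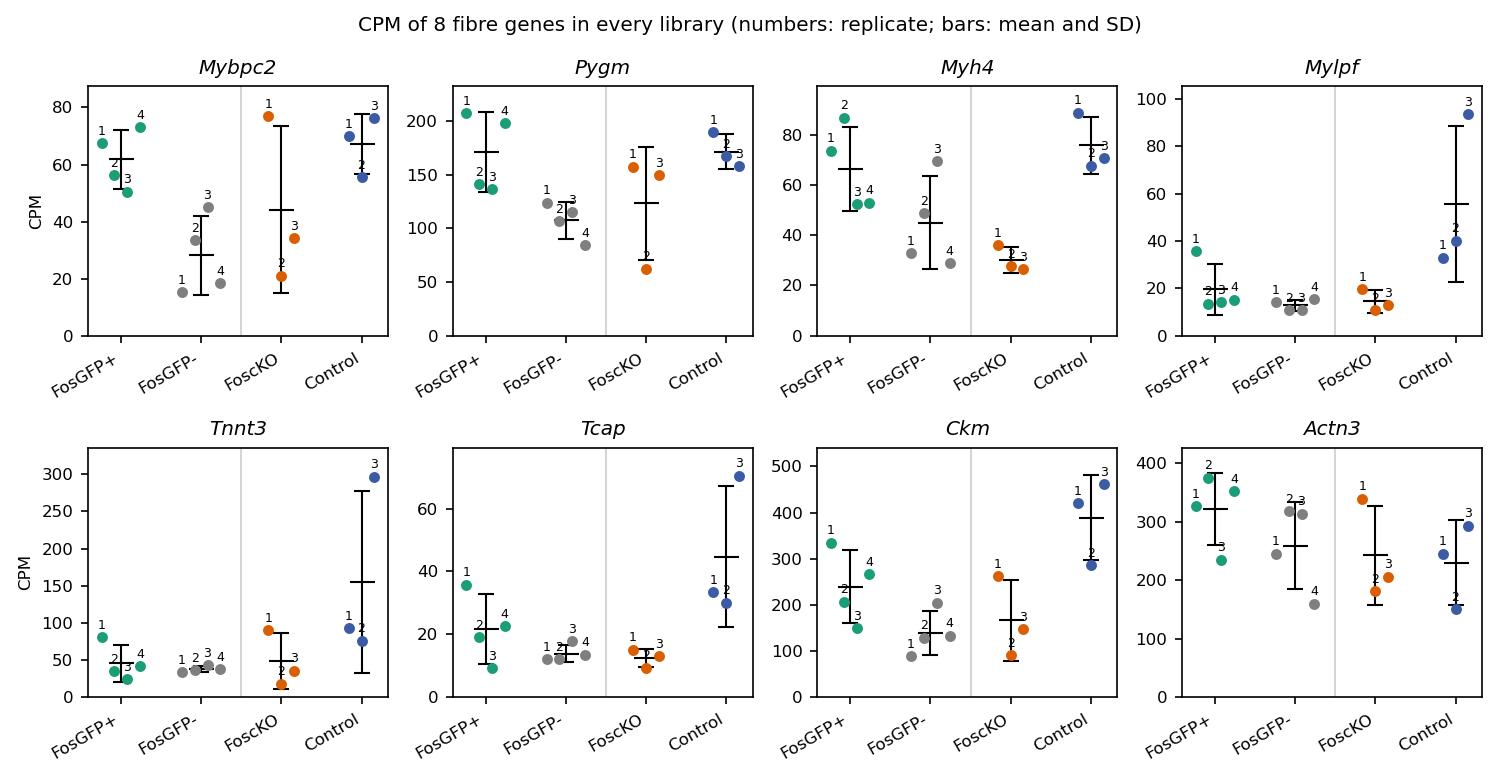
CPM of 8 fibre genes in each of the 14 libraries, with the replicate number above each point and the group mean and SD as bars; the 2 datasets, split by the grey line, were scaled apart. Mybpc2 and Pygm separate FosGFP+ from FosGFP-, Myh4, Mylpf, Tcap and Ckm separate FoscKO from Control, and Tnnt3 shows Control replicate 3 at 297 CPM, far above the other Control libraries.

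Single libraries set the size of several changes in the second comparison, but not the direction of most members. On leaving out each library in turn, 32 to 37 of 38 members lay below 0, with medians from -1.07 to -0.53. Control replicate 3 was the highest Control library for 26 of 38 members, among them 12 of 13 fast genes, where it was the highest for 33.1% of all genes. FoscKO replicate 2 was the lowest FoscKO library for 25 of 38 members, among them 11 of 13 fast and 4 of 4 metabolism genes, where it was the lowest for 34.3% of all genes. Without Control replicate 3, the median of the members was -0.53, with 34 of 38 below 0 and 0 called. The log2 fold change of Myl1 then became -0.60, that of Myot -0.90, that of Tnnt3 -0.79, that of Mylpf -1.32 and that of Tcap -1.33, while Myh4 stood at -1.37. Without FoscKO replicate 1, the library with the fewest genes detected (31483 against 36054 and 36804 in replicates 2 and 3) and the largest share of reads in genes (30.2%), 4 members were called lower (Ckm, Myh4, Myoz1 and Mylpf), beside 0.116% of all genes, and 0 higher, beside 0.0689%. The median was then -0.95, with 32 of 38 below 0.

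Summed over the 39 genes, fibre RNA stood at 3209, 2418, 1894 and 2631 CPM in FosGFP+ (mean 2538 ± 544, SD, n = 4) and 2035, 2143, 2499 and 1927 in FosGFP- (2151 ± 248, SD, n = 4). It stood at 3141, 1478 and 2681 CPM in FoscKO (2433 ± 859, SD, n = 3) and 3719.7, 2969 and 5659.9 in Control (4116 ± 1389, SD, n = 3). With total counts in place of TMM, the means were 2221 CPM in FosGFP+ and 2451 in FosGFP-, so that the direction turned. In both datasets the summed ranges overlapped with TMM, in the second through FoscKO replicate 1, which exceeded Control replicate 2. With total counts those of the second dataset did not overlap, at 1669 to 2615 CPM in FoscKO and 3205 to 6430 in Control. Nor did they with the background subtracted (1432 to 2755 and 3058 to 6244). Those of the first dataset overlapped under both. In such bulk samples, fewer cells of a type and less RNA in each cell cannot be told apart. Between FoscKO and Control, the summed satellite cell markers were at 6531 to 10996 and 6059 to 8306 CPM, smooth muscle and pericyte markers, led by Notch3 and Acta2, at 780.0 to 1442 and 639 to 899.8, and fibro-adipogenic progenitor markers, almost all Gsn and Col3a1, at 5325 to 9979 and 6066 to 7652. Endothelial markers were at 194 to 237 and 164 to 208, leukocyte markers at 47.3 to 89.8 and 56.0 to 80.5 and erythroid markers at 1.07 to 3.34 and 1.67 to 4.19 CPM. Single markers could differ from their sums. Myf5 (log2 fold change 1.13), Chodl (0.63) and Dpt were higher in FoscKO without overlap, as in 5.75% of all genes. Pecam1 (-1.06) and Pdgfra were lower without overlap, as in 6.47%. None was called by edgeR. Of the 10 satellite cell markers, 7 lay above 0, with a median of 0.31. In every library of its group, 3 of the 10 endothelial markers stood below 2 times the background in FoscKO (Cdh5, Cldn5 and Tie1) and 2 in Control (Cdh5 and Cldn5), and the others, Pecam1 and Kdr among them, stood above it in at least 1 library. The same held for 2 of the 10 fibro-adipogenic markers in FoscKO (Ly6a and Pdgfra) and 2 in Control (Ly6a and Smoc2), for 3 of 10 smooth muscle markers in each group, and for 3 and 2 of 10 leukocyte markers. Hba-a1 and Hba-a2 of the 5 erythroid markers were at 0 in both groups. The part of these cells in the fibre genes' values was not tested.

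**Figure D4:**
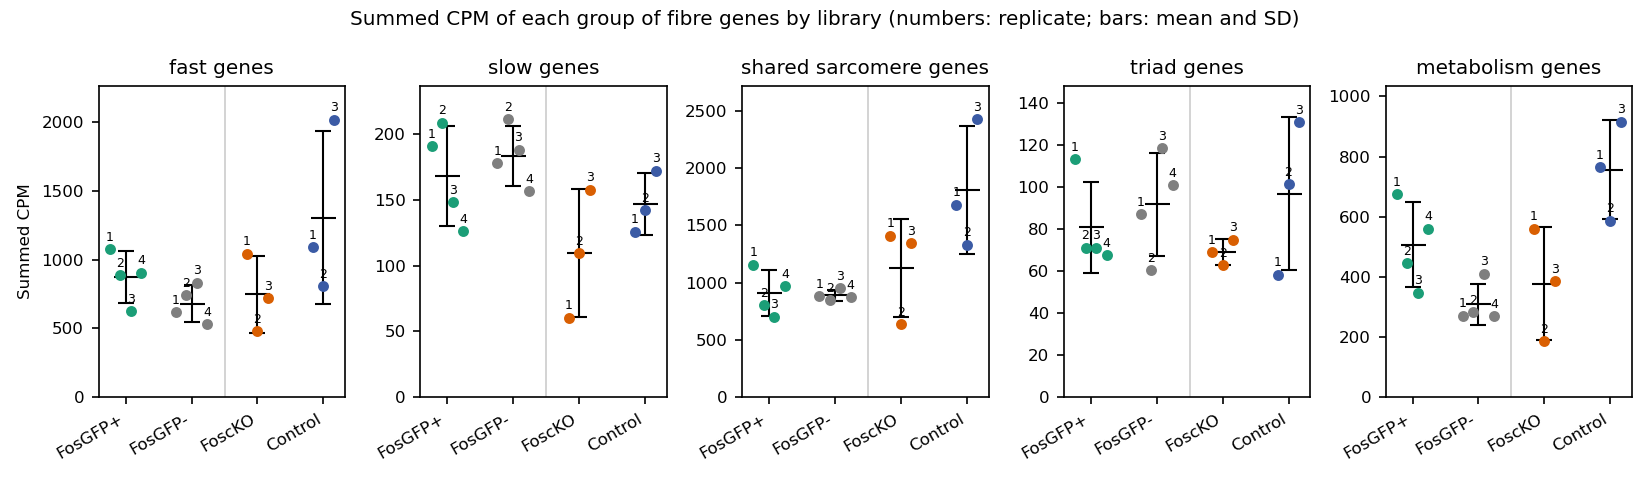
Summed CPM of the fast, slow, shared sarcomere, triad and metabolism genes in each of the 14 libraries, with replicate numbers and the group mean and SD as bars; the axes differ between panels and the datasets, split by the grey line, were scaled apart. Control replicate 3 is the highest library of its dataset in every panel, at 2016 CPM for the fast genes, while FoscKO replicate 2 is the lowest for the fast, shared sarcomere and metabolism genes. Most of the slow sum is Mybpc1, at a mean of 120.2 of 168.4 CPM in FosGFP+, 117.7 of 183.4 in FosGFP-, 75.1 of 109.3 in FoscKO and 101.8 of 146.7 in Control.

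Fibre genes outside the set were taken from lists of the same roles. In FosGFP+ against FosGFP-, 3 of 16 other triad and calcium genes tested were called, where 12.1% of all genes were called in either direction (edgeR). Atp2a2, the slow and non-muscle calcium pump, was 2.98-fold higher in FosGFP+ (859 ± 91.2 against 288 ± 117 CPM, SD, n = 4, log2 fold change 1.58, SE 0.24, adjusted p = 0.000516, edgeR). Tmem38a, a cation channel of the reticulum, was called higher (log2 fold change 0.90, SE 0.27, adjusted p = 0.0392) and Mrln, a micropeptide that inhibits the pump, lower (log2 fold change -1.34, SE 0.35, adjusted p = 0.0194). Of 22 other sarcomere and Z-disc genes, 1 was called, Tmod4, which caps thin filaments (2.87 ± 0.709 against 10.7 ± 0.974 CPM, log2 fold change -1.88, SE 0.39, adjusted p = 0.00416). Of 12 other metabolism genes none was called and 7 lay above 0 (5 with total counts and 2 with the well-expressed scaling), among them Aldoa, an aldolase of glycolysis (log2 fold change 0.49, SE 0.17, adjusted p = 0.0662, called by DESeq2 at 0.0139 and negative at -0.10 with the well-expressed scaling). All 5 embryonic and regenerating fibre genes lay below 0, and Myh8, the perinatal myosin heavy chain, was called (log2 fold change -0.88, SE 0.25, adjusted p = 0.0309). The calls of Atp2a2 and Tmod4 held under all 16 alternatives run. That of Tmem38a was lost under 3 scalings (total counts, well-expressed genes and background subtraction) and when any of 5 libraries was left out (FosGFP+ replicates 1 and 2 and FosGFP- replicates 1, 2 and 3). Its adjusted p then lay between 0.0607 and 0.448. That of Mrln was lost when FosGFP+ replicate 4 or any of FosGFP- replicates 1, 2 and 4 was left out (0.0559 to 0.0685). That of Myh8 was lost with no filter and when any of FosGFP+ replicates 1, 2 and 4 or FosGFP- replicates 1, 3 and 4 was left out (0.0502 to 0.108).

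In FoscKO against Control, edgeR called none of these genes, nor any other gene. Of 14 other metabolism genes 13 lay below 0, with a median of -0.67 and 3 at an unadjusted p under 0.05 (Cox6a2, Pfkm and Pgam2), and of 23 other sarcomere genes 16 lay below 0, with a median of -0.43. The 17 other triad and calcium genes were split, with 8 below 0 and a median of 0.06 (-0.13 with total counts and -0.14 with the well-expressed scaling), and Atp2a2 was at 836 ± 341 against 570.5 ± 66.4 CPM (SD, n = 3, log2 fold change 0.55, SE 0.32, adjusted p = 0.914). Of the 5 embryonic genes 3 lay above 0, the largest being Actc1, the cardiac actin made in developing fibres, at 238 ± 177 CPM in FoscKO and 65.0 ± 35.9 in Control (SD, n = 3, log2 fold change 1.88, SE 0.57, adjusted p = 0.631). The mature and the embryonic actin thus lay on opposite sides of 0, neither past the test.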

How the data were processed

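RNA of 1000 sorted cells per library was extracted with the RNeasy micro kit, amplified with SMART-Seq v4, made into Nextera XT libraries and read on an Illumina HiSeq, per the labels' protocols. The deposited tables hold raw counts per Ensembl gene. The submitters' processing notes name GRCm38 and, without their roles, HTSeq 0.6.1, limma, DESeq2 1.20.0 and STAR 2.5.0c. The authors' deposited tables of log2 fold changes and p-values list only genes with an adjusted p under 0.05, and their 14 columns of per-library values match no label and were not used. The 5 HTSeq lines that name no gene stayed out of library sizes; reads in genes were 10.3 to 30.2% of all reads in these tables.

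Identifiers were matched to GENCODE M21 on GRCm38 (49412 of 49671). Genes passing filterByExpr were tested in each dataset alone with the quasi-likelihood F-test of edgeR 4.0.16 (R 4.3.3, TMM, robust), and p-values were adjusted by Benjamini-Hochberg over all genes. Alternatives were other scalings, no filter, DESeq2 1.42.0, limma-voom (limma 3.58.1), a replicate block, subtraction of the even background and leaving out each library. The procedure was tested on simulated counts, with known changes given to genes of at least 5 CPM on average. With the libraries of the first dataset it recovered 77 of 100 changes of 4-fold and 19 of 100 of 2-fold, with 5 false calls. With those of the second it recovered 67 and 13 of 100, with 3 false calls, so most 2-fold changes would be missed.

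The members and lists were chosen with earlier results of these data known. Per-library values are given for members called, for up to 4 of the highest mean CPM per list and dataset, and for up to 6 with the largest fold change among those of at least 5 CPM on average; Myl1, Tnnc2, Actn2 and others beyond that rule were chosen after their values were seen.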

Additional observations from a re-analysis of the deposited data

Results flagged for a closer look

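In a group of 4 libraries, a library was singled out when its gap to the nearest other exceeded Dixon's 95% critical value for the range of the group. Of 78 groups of 4 libraries, 3 held such a library, and chance alone gives about 1 in 20. Mylpf, the fast regulatory light chain, was at 35.79 CPM in FosGFP+ replicate 1 and at 13.5, 14.2 and 15.2 in the other FosGFP+ libraries. Mb, the oxygen store myoglobin, was at 27.84 CPM in the same library and at 14.1, 13.1 and 14.5 in the others. Myl2, the slow regulatory light chain, was at 1.923 CPM in FosGFP+ replicate 4 and at 5.85 to 6.14 in the other FosGFP+ libraries. With TMM and the filter on low counts, edgeR called none of these genes in either comparison. Mylpf was called lower in FoscKO by DESeq2, with no filter and without FoscKO replicate 1. The groups of 3 libraries of the second dataset were not examined in this way.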

How the results depend on the processing

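The groups hold 3 or 4 libraries, levels below 2 times the even background rest on few reads above it, and the scaling sets how many members lie on each side of 0 in the first comparison. There, the 2 members called higher became 0 with total counts, with the well-expressed scaling and with the background subtracted, 4 with no filter, 4 by DESeq2 and 0 to 5 on leaving out each library in turn (0 without FosGFP- replicate 4, and 5 without FosGFP+ replicate 3). The members called lower became 3 with total counts and 8 with the well-expressed scaling. Of all genes, those called higher became 1029, 712 and 1324 with total counts, the well-expressed scaling and the background subtracted, and those called lower 2087 and 5307 under the first pair, and 183 to 364 on leaving out each library in turn. The median of the members turned negative without FosGFP+ replicate 1.

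Signs also turned for single genes of the first comparison. With total counts, the log2 fold change was -0.057 for Actn3, -0.0049 for Atp2a1 and -0.34 for Mybpc1. With the well-expressed scaling it was -0.17 for Acta1, -0.26 for Actn3, -0.21 for Atp2a1, -0.54 for Mybpc1 and -0.10 for Aldoa, and with the background subtracted it was -0.19 for Mybpc1. On leaving out each library in turn, Mybpc1 ranged from -0.13 to 0.22 and Tnnt1 from -0.38 to 0.074. The mean summed level of the 39 genes was 2221 CPM in FosGFP+ and 2451 in FosGFP- with total counts, against 2538 and 2151 with TMM, so that the direction turned.

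In the second comparison, where edgeR called no gene, members called lower numbered 2 with total counts, 2 with the well-expressed scaling, 8 with no filter, 3 by DESeq2, 1 with the background subtracted and 0 to 4 on leaving out each library in turn. In the same order, all genes called higher numbered 12, 11, 85, 40, 2 and 0 to 16, and lower 34, 33, 46, 29, 13 and 0 to 27, while limma-voom called 3 and 3. The log2 fold change of Actn3 was -0.18 with total counts, -0.19 with the well-expressed scaling, -0.074 with the background subtracted and from -0.24 to 0.31 on leaving out each library in turn, over which Tnnt1 ranged from -0.19 to 0.011 and Ttn from -0.37 to 0.053. No member was called higher in this comparison under any alternative run. The causes of these changes were not tested.

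With the replicate number as a block (replicate block), 1 member was called higher in the first comparison (Mybpc2), beside 2002 genes higher and 278 lower, and Pygm was not (log2 fold change 0.66, adjusted p = 0.0606), and Tmem38a and Myh8 also lost their calls. In the second, 3 members were called lower (Tcap, Myh4 and Ckm), beside 23 genes higher and 20 lower. Same-numbered libraries deviated from their group means with correlations across genes of 0.28, 0.24, 0.17 and 0.01 in the first dataset and 0.17, 0.02 and -0.07 in the second, so the numbers were not taken to pair the libraries. In the first dataset 3 of 4 FosGFP+ libraries correlated best with their own number, a hint from the data and not the design.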
